A study of Homo sapiens with 36 samples.

Results

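The genes described here are 42 genes of homologous recombination and of the Fanconi anaemia pathway, taken by name and matched through GENCODE release 44 to the 29872 genes of a table of normalised RNA-seq counts, in which all 42 were found. They were measured in LNCaP, a human prostate cancer cell line that responds to androgen. The cells received vehicle, AU2-94 (1 or 2 µM), atirmociclib (1 or 2 µM) or ribociclib (2 µM). The first 2 compounds are CDK4-selective inhibitors, and ribociclib inhibits CDK4 and CDK6. In the study's kinase assays atirmociclib was less selective for CDK4 than AU2-94 and inhibited other CDKs more strongly. RNA was taken after 24 h or after 72 h from 3 biological replicates per treatment, in 12 groups altogether. The vehicle groups carry a dose of 2 µM in the sample labels, and wells meant for 72 h were seeded more thinly than wells meant for 24 h, so harvest time and seeding density cannot be told apart. All values come from 1 cell line, with no other genotype and no recovery after the inhibitor was removed.

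Homologous recombination repairs a DNA double-strand break by copying the sister chromatid. The break is first cut back to single strands, a recombinase filament is then loaded by the BRCA proteins and invades the intact copy, and the joined molecules are finally dissolved or cut. The Fanconi anaemia proteins attach ubiquitin to a pair of clamp proteins at crosslinked DNA and hand the lesion over to recombination, and the checkpoint kinases ATR and CHEK1 hold the cell cycle meanwhile. Many of these genes are transcribed mostly in S and G2 phase, and CDK4 with cyclin D promotes entry into S phase through the retinoblastoma protein. In bulk RNA, fewer cells in those phases and less RNA of a gene per cell cannot be told apart.

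Normalised counts summed to 20675156 to 22692555 per library, and replicates of a group correlated across genes at 0.9798 to 0.9858. The 9 luminal prostate markers checked were high in all 36 libraries, with KLK3, which encodes prostate-specific antigen, at 19802 to 55194 normalised counts, and 9 of the 9 rose with each treatment at 24 h and 6 to 8 at 72 h. Of 10 markers of basal, stromal, immune and endothelial cells, TP63, KRT5, COL1A2, DCN, PTPRC, CD3E and PECAM1 did not exceed 7.09 in any library, while KRT14 reached 4.35 to 88.6, COL1A1 194 to 644 and VWF 184 to 713. The 10 summed to 700.9 to 851.4 in vehicle and 561.6 to 873.1 in treated libraries at 24 h, and to 699.4 to 899.1 and 813.8 to 1446.9 at 72 h, and their part in the results was not tested.

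Most of the recombination and Fanconi anaemia genes fell with every inhibitor at 24 h, and fewer of them at 72 h. Together the 42 genes made up 0.1985% to 0.2141% of the normalised counts of the vehicle libraries at 24 h and 0.1088% to 0.1463% of those of the 15 treated libraries. At 72 h the shares were 0.1878% to 0.1951% and 0.1302% to 0.173%. At each time point all treated libraries lay below all vehicle libraries. The share of mitochondrial transcripts was 6.45% to 6.60% in vehicle, 6.34% to 7.23% with AU2-94, 1 µM atirmociclib or ribociclib and 7.28% to 7.70% with 2 µM atirmociclib at 24 h. The 72 h shares were 6.76% to 7.42% in vehicle and up to 8.33% to 8.66% with 2 µM atirmociclib, and its part in the results was not tested. A gene was counted as lower or higher where the difference of mean log2(normalised count + 1) had an adjusted p of at most 0.05 in limma, corrected over all genes tested. The test was run for 41 of the 42 genes. The exception below the filter was DMC1, a recombinase of meiosis, whose group means were 0 to 5.43 normalised counts.

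At 24 h the number of the 41 genes that fell was 25 with 1 µM AU2-94, 29 with 2 µM AU2-94, 29 with 1 µM atirmociclib, 30 with 2 µM atirmociclib and 29 with ribociclib. Among all 16137 genes tested the share lower was 13.5%, 14.9%, 15.4%, 16.2% and 15.2% in the same order. The median log2 fold change of the 41 was -0.42, -0.68, -0.84, -0.96 and -0.70, whereas the median of all genes stayed between -0.0032 and 0.0049. At 72 h 16, 15, 25, 25 and 22 of the 41 fell, against 17.0%, 15.3%, 19.8%, 19.6% and 15.4% of 16341 genes, with medians of -0.29, -0.24, -0.42, -0.52 and -0.34. Very few of them rose. The gene that rose at 24 h was NBN, with 2 µM AU2-94 and with ribociclib, while 14.3%, 16.0%, 16.6%, 18.6% and 16.8% of all genes rose in the 5 contrasts. At 72 h 2, 1, 3, 2 and 0 genes rose, against 15.4%, 14.2%, 20.0%, 20.9% and 15.5% of all genes. With the replicate number as a block, 1 in place of 0 rose with 1 µM AU2-94 at 24 h and 1 in place of 2 at 72 h.

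The 5 treatments shared 23 genes that fell in each of them at 24 h, against 7.82% of all genes, and 12 at 72 h, against 8.59%. The 12 at 72 h were among the 23. They were EXO1, CHEK1, BLM, RAD51AP1, BRIP1, BRCA1, FANCI, UBE2T, POLQ, XRCC2, RMI1 and RAD51C, lower in all 10 contrasts, as were 3.91% of the 15849 genes tested at both times. Another 22 genes fell in at least 1 contrast and rose in none. MRE11, RAD50 and FANCB passed in none, and NBN, ATM, ATR and FANCM rose in at least 1. All 15 treated libraries were below every vehicle library for 25 genes at 24 h, where 10.7% of all genes had this pattern, and for 15 at 72 h, where 11.3% had it. The 5 contrasts of a time point share their 3 vehicle libraries and so are not independent.

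**Figure D1:**
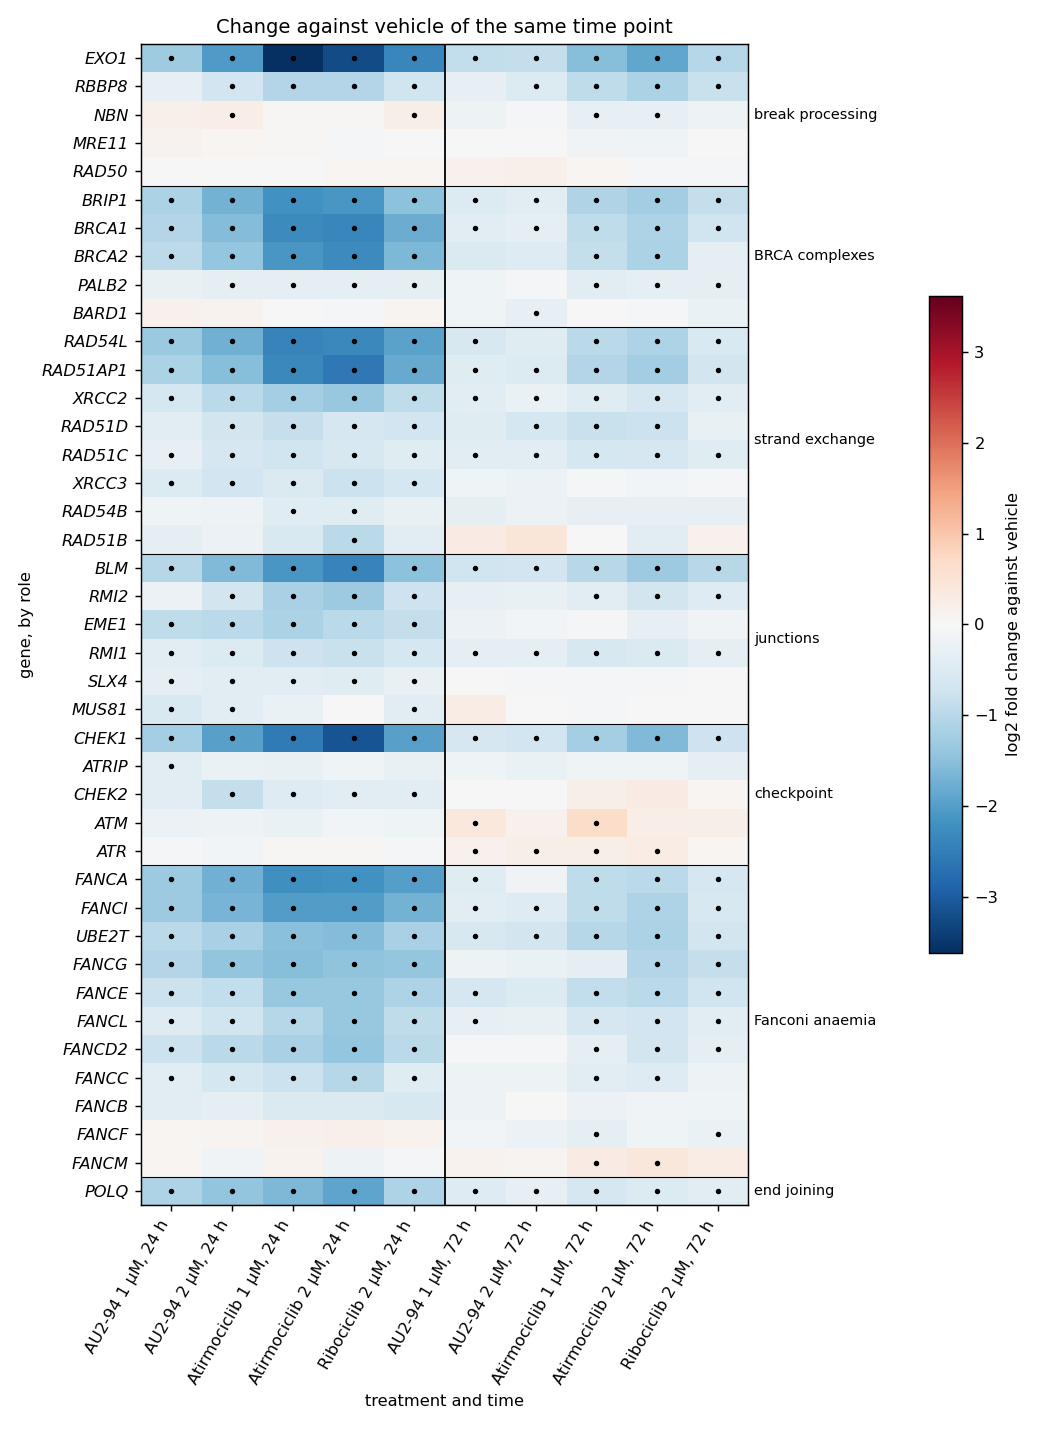
Log2 fold change against vehicle of the same time point for the 41 genes tested (rows, grouped by role) in 5 treatments at 24 h and at 72 h (columns), in colour from blue (lower) over white (0) to red (higher). A dot marks an adjusted p of at most 0.05. Blue with dots fills most of the 24 h columns, from EXO1 at -3.61 with 1 µM atirmociclib to paler rows such as SLX4, while MRE11, RAD50, BARD1, ATR and ATM stay near white at 24 h.

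Sequence upstream of the genes was read from the RefSeq promoter table for GRCh38.p14, which held 38 of the 42 genes. The 250 bases before the gene start were searched on both strands for the E2F-type letters TTTCCCGC, TTTGGCGC or TTCCCGCC, of which the first and last share letters, for the CCAAT box and for the cell-cycle homology letters TTTGAA. E2F proteins are the transcription factors that the retinoblastoma protein holds in check. E2F-type letters were found in 5 of the 38 (13.2%), against 3.98% of 27305 promoters in the table. CCAAT was in 44.7% against 33.0%, and TTTGAA in 13.2% against 13.6%. The 5 stretches that held E2F-type letters are shown because they are the only such matches among the genes, 30 bases each, 5′ to 3′ on the strand of the gene, with the match in capitals.
BLM, chr15:90717260-90717289, plus strand: cagcctgagggGGCGGGAAcagatgtccga
FANCC, chr9:95317737-95317766, minus strand: ttcgtcggaatTTTCCCGCgacgccgcggg
FANCL, chr2:58241406-58241435, minus strand: cctccaggatcTTCCCGCCaaggctggggt
RAD51AP1, chr12:4538857-4538886, plus strand: gtctggttttgGGCGGGAAttgaaaccgcc
RAD54L, chr1:46247628-46247657, plus strand: gcgcagcactaTTCCCGCCtcttccttggg
In BLM and RAD51AP1 the searched letters lie on the opposite strand, so the capitals read as their reverse complement. The 5 genes differed in how far they fell, from RAD51AP1 and RAD54L among the deepest to FANCC, whose log2 fold change was -1.03 to -0.39 at 24 h. Of the 12 genes lower in every contrast, 11 had a sequence in the table, and 2 of these (18.2%) held E2F-type letters, 6 (54.5%) CCAAT and 3 (27.3%) TTTGAA. The other 26 genes tested held them in 11.5%, 42.3% and 7.69%. Starts are those of RefSeq. GENCODE begins FANCC, RAD51AP1 and RAD54L further upstream, so their stretches lie within the GENCODE gene models. It also begins FANCL further upstream, and the FANCL stretch overlaps that model in part. The windows of BRCA1 and RMI1 lay upstream of their whole GENCODE models. Those of RAD51B, RAD51D, RAD50, RBBP8, RAD54L, BRCA2, MUS81, CHEK1, CHEK2, FANCA and FANCC lay within their models. Most of the EXO1 window lay within its model, and windows of other genes overlapped theirs in part. Only the start in the promoter table was searched for each gene, so letters before other starts would be missed. A match is a run of letters and was not tested for binding.

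Of the 5 break processing genes, EXO1 and RBBP8 fell in most contrasts and the subunits of the MRN complex did not. EXO1, an exonuclease that lengthens the single strand (chromosome 1, 241847967 to 241895148 on the plus strand, GRCh38), had the largest mean fall of all 41 genes. At 24 h it measured 532, 648 and 537 with vehicle, 298, 208 and 204 with 1 µM AU2-94, 110.2, 159 and 146 with 2 µM AU2-94, 53.2, 39.8 and 44.8 with 1 µM atirmociclib, 40.7, 67.1 and 76.3 with 2 µM atirmociclib, and 152, 109 and 82.2 with 2 µM ribociclib normalised counts. At 72 h it measured 515, 549 and 707 with vehicle, 278, 390.0 and 297 with 1 µM AU2-94, 342, 353 and 274 with 2 µM AU2-94, 176, 233 and 197 with 1 µM atirmociclib, 165, 143 and 168 with 2 µM atirmociclib, and 314, 314 and 231 with 2 µM ribociclib. Every treated library was below every vehicle library at both times, and at 24 h the 6 atirmociclib libraries were the lowest. The group mean fell from 572 ± 65.5 (SD, n = 3) in vehicle to 45.9 ± 6.78 with 1 µM atirmociclib at 24 h, 8.03% of vehicle, a log2 fold change of -3.61 (SE 0.24, adjusted p = 1.25e-09). Over the 5 treatments it was -3.61 to -1.29 at 24 h (SE 0.24) and -1.88 to -0.86 at 72 h (SE 0.16). RBBP8, the nuclease cofactor also called CtIP that starts resection, fell in 8 of 10 contrasts, with a log2 fold change of -1.07 (SE 0.18, adjusted p = 0.000168) with 2 µM atirmociclib at 24 h and -1.14 (SE 0.15, adjusted p = 7.27e-06) at 72 h. The MRN complex of MRE11, RAD50 and NBN binds the broken end first. MRE11 was at 95.1% to 109% and 90.4% to 102% of vehicle at 24 h and 72 h and RAD50 at 99% to 105% and 94.7% to 114%, and neither passed in any contrast. NBN rose by 0.25 (SE 0.06, adjusted p = 0.00669) with 2 µM AU2-94 and 0.22 (SE 0.06, adjusted p = 0.0138) with ribociclib at 24 h, the latter lost without ribociclib replicate 3 or vehicle replicate 2, and fell by 0.31 on the log2 scale with both doses of atirmociclib at 72 h. Of the exon bases of RAD50, 76.9% also belong to a second gene model on the same strand, so its reads may be split between them.

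Among the genes of the BRCA proteins BRIP1 and BRCA1 fell in all 10 contrasts and BARD1 in 1. BRIP1, a helicase that binds BRCA1 (chromosome 17, 61679139 to 61863559 on the minus strand), showed the largest mean fall of the group. Its normalised counts at 24 h were 848, 811 and 668 with vehicle, 266, 348 and 451 with 1 µM AU2-94, 210.0, 265 and 237 with 2 µM AU2-94, 172, 168 and 166 with 1 µM atirmociclib, 189.9, 156 and 190.1 with 2 µM atirmociclib, and 266, 277 and 292 with 2 µM ribociclib. The 72 h counts were 847, 759.5 and 792 with vehicle, 592, 547 and 567 with 1 µM AU2-94, 662, 577 and 563 with 2 µM AU2-94, 359.8, 380.2 and 392 with 1 µM atirmociclib, 373, 356 and 275 with 2 µM atirmociclib, and 454, 384 and 482 with 2 µM ribociclib. No treated library reached the lowest vehicle library at either time. The log2 fold change ran from -2.19 to -1.15 at 24 h (SE 0.15) and from -1.27 to -0.41 at 72 h (SE 0.11), with a highest adjusted p of 0.00738. BRCA1, a ubiquitin ligase that promotes resection and filament loading (chromosome 17, 43044295 to 43170245 on the minus strand), followed closely. Its 24 h counts were 2000.0, 1975 and 2003 with vehicle, 1110.5, 938 and 821 with 1 µM AU2-94, 750.2, 579 and 706 with 2 µM AU2-94, 570.3, 338 and 349.6 with 1 µM atirmociclib, 397, 354 and 412 with 2 µM atirmociclib, and 624, 570.0 and 530.4 with 2 µM ribociclib. Later, at 72 h, BRCA1 was at 1826, 1674 and 1761 with vehicle, 1441, 1215 and 1414 with 1 µM AU2-94, 1371, 1449 and 1349 with 2 µM AU2-94, 1045, 881 and 871 with 1 µM atirmociclib, 803, 819.9 and 794 with 2 µM atirmociclib, and 1072, 1048 and 1098 with 2 µM ribociclib. Its mean with 2 µM atirmociclib at 24 h was 19.5% of vehicle, a log2 fold change of -2.36 (SE 0.16, adjusted p = 1.07e-09), and the change nearest to 0 was -0.34 (SE 0.07, adjusted p = 0.00216) with 2 µM AU2-94 at 72 h. All 15 treated libraries were below vehicle at both times.

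BRCA2, which loads the recombinase, fell in all 5 treatments at 24 h, to 21% to 51.8% of vehicle, and at 72 h it passed with atirmociclib, where the log2 fold change was -0.87 (SE 0.20, adjusted p = 0.0015) at 1 µM and -1.14 (SE 0.20, adjusted p = 0.000124) at 2 µM. Ribociclib gave -0.34 (SE 0.20, adjusted p = 0.198). PALB2, which joins BRCA1 to BRCA2, changed little in size but fell in 7 contrasts, at 77.5% to 83.3% of vehicle at 24 h. BARD1, the obligate partner of BRCA1 in its ubiquitin ligase, did not follow BRCA1 at 24 h. It measured 3158, 3097 and 2759.5 with vehicle, 3598, 3142 and 3374 with 1 µM AU2-94, 3512, 2947 and 3316 with 2 µM AU2-94, 3377, 3022 and 2749 with 1 µM atirmociclib, 2799, 3061 and 2806 with 2 µM atirmociclib, and 3224, 3281 and 3106 with 2 µM ribociclib at 24 h, where vehicle and treated libraries overlapped and no contrast passed. At 72 h its group means were 81.6% to 98.7% of vehicle, with 12 of 15 treated libraries below every vehicle library and 2 above. The single contrast in which it fell was 2 µM AU2-94 at 72 h, at -0.30 (SE 0.09, adjusted p = 0.0184).

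Strand exchange genes fell to different degrees. RAD54L, the motor protein that drives the invading filament along its target (chromosome 1, 46246461 to 46278480 on the plus strand), measured 911, 996 and 903 with vehicle, 366, 310.0 and 432 with 1 µM AU2-94, 228, 254 and 374 with 2 µM AU2-94, 185, 212 and 133 with 1 µM atirmociclib, 171, 208 and 179 with 2 µM atirmociclib, and 274, 236 and 232 with 2 µM ribociclib at 24 h. RAD54L counts at 72 h were 815, 935 and 793 with vehicle, 552, 514 and 627 with 1 µM AU2-94, 677, 713 and 515 with 2 µM AU2-94, 581, 408 and 343 with 1 µM atirmociclib, 431, 425 and 326 with 2 µM atirmociclib, and 752, 432 and 588 with 2 µM ribociclib. Treated and vehicle libraries were apart at both times, but the gap at 72 h was small for some libraries. RAD54L fell, with a log2 fold change of -2.42 to -1.35 at 24 h (SE 0.18). At 72 h it was -1.11 (SE 0.19, adjusted p = 0.000141) with 2 µM atirmociclib and -0.43 (SE 0.19, adjusted p = 0.107) with 2 µM AU2-94, which did not pass. The calls for 1 µM AU2-94 and for ribociclib at 72 h, -0.59 (SE 0.19, adjusted p = 0.0255) and -0.55 (SE 0.19, adjusted p = 0.036), depended on single libraries. The first was lost without replicate 1 or 2 of AU2-94 (adjusted p of 0.0639 and 0.0882) or vehicle replicate 2 (0.0932). The second was lost without ribociclib replicate 2 or 3 (0.196 and 0.0692) or without any vehicle library (0.0535 to 0.12). LRRC41 overlaps 19.9% of the exon bases of RAD54L on the opposite strand.

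RAD51AP1 stimulates the invasion step (chromosome 12, 4538798 to 4560047 on the plus strand) and carried E2F-type letters close to its start. At 24 h it measured 500.2, 447 and 476 with vehicle, 229.5, 178 and 235 with 1 µM AU2-94, 152, 123 and 235 with 2 µM AU2-94, 87.2, 77.9 and 117 with 1 µM atirmociclib, 90.2, 86.6 and 61.7 with 2 µM atirmociclib, and 135, 143 and 126 with 2 µM ribociclib. RAD51AP1 at 72 h was at 425, 489.5 and 435 with vehicle, 353, 269 and 377 with 1 µM AU2-94, 325, 282 and 351 with 2 µM AU2-94, 243, 219 and 186 with 1 µM atirmociclib, 175, 196 and 189 with 2 µM atirmociclib, and 283, 291 and 279.7 with 2 µM ribociclib. The groups did not overlap with vehicle at either time. With 2 µM atirmociclib its mean was 16.8% of vehicle at 24 h, at -2.58 (SE 0.21, adjusted p = 1.71e-08), and 41.5% at 72 h, at -1.26 (SE 0.13, adjusted p = 2.05e-07). The smallest fall, -0.44 (SE 0.13, adjusted p = 0.0115) with 1 µM AU2-94 at 72 h, was lost without AU2-94 replicate 2 (adjusted p = 0.0825) or vehicle replicate 2 (adjusted p = 0.0566). XRCC2 and RAD51C, paralogues of the recombinase that stabilise its filament, fell in all 10 contrasts, with log2 fold changes of -1.38 to -0.64 for XRCC2 and -0.73 to -0.29 for RAD51C at 24 h. RAD51D, another paralogue, fell in 7 and was at 55.7% to 75.5% of vehicle at 24 h. RAD51B, also a paralogue, fell in 1, -0.96 (SE 0.22, adjusted p = 0.00201) with 2 µM atirmociclib at 24 h. XRCC3 fell in the 5 contrasts at 24 h, to 58.8% to 71.2% of vehicle, and in none at 72 h, but 76.7% of its exon bases lie opposite KLC1. RAD54B, a relative of RAD54L, fell with the 2 doses of atirmociclib at 24 h, to 74.1% and 74.7% of vehicle, and shares 66.0% of its exon bases with FSBP.

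BLM and RMI1, which dissolve joined DNA molecules, fell in all 10 contrasts, and the genes of a nuclease complex that cuts them fell at 24 h only. BLM, the helicase mutated in Bloom syndrome (chromosome 15, 90717346 to 90816166 on the plus strand), measured 611, 356 and 482 with vehicle, 255, 229 and 204 with 1 µM AU2-94, 133, 179 and 157 with 2 µM AU2-94, 101, 97.8 and 133 with 1 µM atirmociclib, 63.7, 92.2 and 116 with 2 µM atirmociclib, and 186, 199 and 128 with 2 µM ribociclib at 24 h. The counts of BLM at 72 h were 477, 458 and 507 with vehicle, 231, 279.5 and 377 with 1 µM AU2-94, 269, 303 and 316 with 2 µM AU2-94, 225, 279 and 213 with 1 µM atirmociclib, 194, 213 and 169.7 with 2 µM atirmociclib, and 260.0, 216 and 239 with 2 µM ribociclib. Vehicle replicate 2 at 24 h was low, yet still above every treated library. The fall of BLM was -2.41 to -1.04 on the log2 scale at 24 h (SE 0.23) and -1.32 to -0.70 at 72 h (SE 0.15). The 250 bases before its start, chr15:90717096-90717345 on the plus strand of GRCh38.p14, are printed because BLM fell in all 10 contrasts and held every kind of match but TTTGAA, with the E2F-type match in capitals.
BLM: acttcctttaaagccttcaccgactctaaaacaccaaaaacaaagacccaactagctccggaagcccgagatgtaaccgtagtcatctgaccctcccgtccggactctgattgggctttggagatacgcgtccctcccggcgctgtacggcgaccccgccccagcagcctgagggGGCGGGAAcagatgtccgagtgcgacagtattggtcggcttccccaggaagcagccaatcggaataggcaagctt
CCAAT matches lie 141 to 137, 46 to 42 and 21 to 17 bases before the start, the first 2 on the opposite strand, and the E2F-type match 75 to 68 bases before it. RAD51AP1 also fell in all 10 contrasts and held E2F-type letters and CCAAT without TTTGAA.

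RMI1 and RMI2 form a complex with BLM. RMI2 (chromosome 16, 11249619 to 11381662 on the plus strand) measured 268, 227 and 220.0 with vehicle, 216, 180.3 and 223 with 1 µM AU2-94, 155, 162 and 135 with 2 µM AU2-94, 129, 83.2 and 110.4 with 1 µM atirmociclib, 84.4, 104 and 100.3 with 2 µM atirmociclib, and 148, 153 and 124 with 2 µM ribociclib at 24 h. RMI2 at 72 h was at 238, 305 and 242 with vehicle, 210.2, 204 and 217 with 1 µM AU2-94, 241, 212 and 196 with 2 µM AU2-94, 199.6, 201 and 187 with 1 µM atirmociclib, 171, 174 and 152 with 2 µM atirmociclib, and 219.5, 169 and 174 with 2 µM ribociclib. One library each of 1 µM AU2-94 at 24 h and of 2 µM AU2-94 at 72 h overlapped with vehicle. It fell in 7 contrasts, with -1.30 (SE 0.16, adjusted p = 4.23e-06) with 2 µM atirmociclib at 24 h, and did not pass with 1 µM AU2-94 at either time or with 2 µM AU2-94 at 72 h. The call for 1 µM atirmociclib at 72 h, -0.41 (SE 0.12, adjusted p = 0.0148), was lost without atirmociclib replicate 3 (adjusted p = 0.0516) or vehicle replicate 2 (adjusted p = 0.0951). RMI1 fell in all 10, with log2 fold changes of -0.80 to -0.40 at 24 h and -0.58 to -0.31 at 72 h. EME1 and MUS81 form a nuclease that cuts joints, and SLX4 is the scaffold on which it works. EME1 fell in all 5 treatments at 24 h, to 45.5% to 55.8% of vehicle, and in none at 72 h, where it was at 82% to 97.3%. SLX4 did the same at a smaller size, with 73.5% to 82.3% and 96.4% to 101% of vehicle. MUS81 fell with both doses of AU2-94 and with ribociclib at 24 h, at -0.54 (SE 0.14, adjusted p = 0.00717) with 1 µM AU2-94, whereas 2 µM atirmociclib gave -0.02 (SE 0.14, adjusted p = 0.942).

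In the checkpoint group CHEK1 fell in every contrast and its upstream kinase ATR did not fall in any. CHEK1, the kinase that ATR switches on (chromosome 11, 125625163 to 125676255 on the plus strand), measured 980.1, 1111 and 983 with vehicle, 490.2, 393 and 441 with 1 µM AU2-94, 261, 232 and 299 with 2 µM AU2-94, 265, 152 and 129.5 with 1 µM atirmociclib, 118, 132 and 102 with 2 µM atirmociclib, and 279, 240.4 and 273 with 2 µM ribociclib at 24 h. At 72 h it measured 810.3, 958 and 1095 with vehicle, 597, 609.6 and 666 with 1 µM AU2-94, 685, 516 and 581 with 2 µM AU2-94, 492, 354 and 388 with 1 µM atirmociclib, 281, 311 and 353 with 2 µM atirmociclib, and 622, 518 and 542 with 2 µM ribociclib. All treated libraries were below all vehicle libraries at both times. With 2 µM atirmociclib at 24 h the mean was 117 ± 15.2 against 1025 ± 74.8 in vehicle (SD, n = 3), 11.5% of vehicle, a log2 fold change of -3.12 (SE 0.19, adjusted p = 2.98e-10). The change nearest to 0 was -0.60 (SE 0.13, adjusted p = 0.00202) with 1 µM AU2-94 at 72 h. Gene models on the opposite strand overlap 13.4% of its exon bases.

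ATR (chromosome 3, 142449007 to 142578733 on the minus strand), which senses single-stranded DNA, measured 2116, 2019 and 1904 with vehicle, 1866, 1888 and 2105 with 1 µM AU2-94, 1945, 1804 and 1908 with 2 µM AU2-94, 2112, 2077 and 2002 with 1 µM atirmociclib, 1816, 2300.4 and 2128 with 2 µM atirmociclib, and 1862, 1991 and 1859 with 2 µM ribociclib at 24 h, with 6 treated libraries below and 2 above the vehicle range. By 72 h it was at 2007, 2032 and 1784 with vehicle, 2072, 2141 and 2249 with 1 µM AU2-94, 2332, 2264 and 2165 with 2 µM AU2-94, 2162, 2315 and 2265 with 1 µM atirmociclib, 2280.0, 2318 and 2399 with 2 µM atirmociclib, and 2132, 1974 and 1994 with 2 µM ribociclib, and 13 of 15 treated libraries were above every vehicle library. It was the gene that rose most often, in 4 of the 5 treatments at 72 h, but by small amounts. The log2 fold change was 0.27 (SE 0.06, adjusted p = 0.00096) with 2 µM atirmociclib, 0.21 (SE 0.06, adjusted p = 0.0058) with 1 µM atirmociclib, 0.22 (SE 0.06, adjusted p = 0.00721) with 2 µM AU2-94 and 0.15 (SE 0.06, adjusted p = 0.0483) with 1 µM AU2-94. The last had an adjusted p of 0.0631 with the replicate block, and without vehicle replicate 3 at 72 h both AU2-94 calls were lost, at adjusted p of 0.0504 for 2 µM and 0.248 for 1 µM. The 1 µM call was also lost without AU2-94 replicate 2 or 3 (0.0883 and 0.176). The 250 bases before ATR, chr3:142578734-142578983 on the minus strand, are shown because they held none of the searched letters. The windows of EXO1, BRCA1, XRCC2 and RAD51C, which fell in every contrast, held none either. The BRCA1 window lay upstream of its whole GENCODE model, and most of the EXO1 window within its model. The window of ATM, which fell in none, held CCAAT and TTTGAA.
ATR: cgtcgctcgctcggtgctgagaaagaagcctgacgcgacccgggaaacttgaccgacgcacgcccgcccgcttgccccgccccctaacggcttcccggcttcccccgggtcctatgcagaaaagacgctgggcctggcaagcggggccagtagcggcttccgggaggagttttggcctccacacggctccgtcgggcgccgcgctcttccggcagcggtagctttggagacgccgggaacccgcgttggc
ATM, the kinase that answers to double-strand breaks, did not pass at 24 h and rose at 72 h with 1 µM AU2-94, 0.38 (SE 0.10, adjusted p = 0.00513), and 1 µM atirmociclib, 0.66 (SE 0.10, adjusted p = 2.39e-05), but not at 2 µM of either. The group means of ATM at 72 h were 111% to 158% of vehicle, with 12 of 15 treated libraries above every vehicle library and 0 below. Its vehicle libraries at 24 h were uneven, at 3086, 2166 and 2087. ATRIP, the partner of ATR, fell in 1 contrast, -0.38 (SE 0.11, adjusted p = 0.012) with 1 µM AU2-94 at 24 h, and shares exons with TREX1. CHEK2, the kinase that ATM switches on, fell in 4 of 5 treatments at 24 h, at -0.87 (SE 0.14, adjusted p = 8.30e-05) with 2 µM AU2-94, and was at 99.8% to 122% of vehicle at 72 h with no contrast passed. A stretch of 166 bases of CHEK2 is nearly identical to the pseudogene CHEK2P2, whose mean was 0.34 normalised counts.

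Of the 11 Fanconi anaemia genes 8 fell in each of the 5 treatments at 24 h, and 2 to 8 fell at 72 h. The 8 were FANCA, FANCC, FANCE, FANCG and FANCL of the core ligase complex, the ubiquitin-conjugating enzyme UBE2T, and the clamp proteins FANCD2 and FANCI. FANCA (chromosome 16, 89726683 to 89816977 on the minus strand) measured 1438, 1648 and 1462 with vehicle, 684, 522 and 647 with 1 µM AU2-94, 491, 443 and 422 with 2 µM AU2-94, 428, 289 and 272 with 1 µM atirmociclib, 294, 377 and 337 with 2 µM atirmociclib, and 394, 483 and 295 with 2 µM ribociclib at 24 h. FANCA at 72 h was at 1384, 1101 and 1293 with vehicle, 898, 928 and 930.4 with 1 µM AU2-94, 1278, 1062 and 1131 with 2 µM AU2-94, 757, 700.0 and 556 with 1 µM atirmociclib, 689.9, 609 and 615 with 2 µM atirmociclib, and 819.7, 844 and 825 with 2 µM ribociclib. All treated libraries were below vehicle at 24 h, whereas at 72 h 2 libraries of 2 µM AU2-94 overlapped with vehicle. The log2 fold change was -2.22 to -1.30 at 24 h (SE 0.17), and at 72 h -0.98 (SE 0.10, adjusted p = 3.83e-07) with 2 µM atirmociclib against -0.12 (SE 0.10, adjusted p = 0.417) with 2 µM AU2-94. ZNF276 lies opposite 19.6% of its exon bases.

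FANCI, one of the clamp proteins (chromosome 15, 89243945 to 89317261 on the plus strand), measured 2969.6, 2766 and 2832 with vehicle, 1028, 1148 and 1284 with 1 µM AU2-94, 783, 863 and 1034 with 2 µM AU2-94, 966, 547 and 647 with 1 µM atirmociclib, 770.0, 571 and 807 with 2 µM atirmociclib, and 950.1, 919 and 762 with 2 µM ribociclib at 24 h. Its 72 h counts were 2358, 2685 and 2675 with vehicle, 2109, 1652 and 2134 with 1 µM AU2-94, 1822, 1934 and 1871 with 2 µM AU2-94, 1229, 1534 and 1325 with 1 µM atirmociclib, 1213, 1311 and 1072 with 2 µM atirmociclib, and 1888, 1770.4 and 1524 with 2 µM ribociclib. Vehicle and treated libraries did not overlap at either time. The change of FANCI was -2.03 to -1.31 on the log2 scale at 24 h (SE 0.17) and -1.10 to -0.40 at 72 h (SE 0.11), and -0.40 (SE 0.11, adjusted p = 0.00741) with 1 µM AU2-94 at 72 h had an adjusted p of 0.0552 without AU2-94 replicate 2. Its partner FANCD2 fell, at -1.39 to -0.77 at 24 h, and at 72 h with atirmociclib and ribociclib but not with AU2-94, which gave -0.04 (SE 0.11, adjusted p = 0.843) and -0.08 (SE 0.11, adjusted p = 0.658). UBE2T fell in all 10 contrasts, with -1.58 to -0.97 at 24 h and -1.14 to -0.58 at 72 h. FANCG and FANCE fell to 34% to 48.3% and 38.5% to 58.5% of vehicle at 24 h. The FANCL values at 24 h were 38.5% to 72.4% of vehicle. FANCL shares near-identical stretches with 15 other genes, and reads in those stretches may be split. The longest match to each was 107 to 135 bases, of 37977 exon bases in FANCL, and the partners measured had means of up to 90.8 normalised counts.

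FANCB, FANCF and FANCM passed in no contrast at 24 h. FANCB, on the X chromosome, was at 65.9% to 77.8% of vehicle at 24 h and 87.5% to 98.6% at 72 h and did not pass there either. FANCF was at 105% to 112% of vehicle at 24 h and fell at 72 h with 1 µM atirmociclib, -0.35 (SE 0.09, adjusted p = 0.00279), and with ribociclib, -0.24 (SE 0.09, adjusted p = 0.0392). FANCM, the translocase that anchors the core complex to DNA, rose with atirmociclib at 72 h, by 0.29 (SE 0.10, adjusted p = 0.0294) at 1 µM and 0.41 (SE 0.10, adjusted p = 0.00369) at 2 µM. Over the 5 treatments at 72 h, 11 of its 15 treated libraries were above every vehicle library and 0 below.

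POLQ, the polymerase of an alternative end-joining route that cells with weak homologous recombination rely on (chromosome 3, 121431431 to 121545988 on the minus strand), fell in all 10 contrasts. At 24 h it measured 1932, 2131 and 1901 with vehicle, 859, 871 and 1032 with 1 µM AU2-94, 756, 653 and 814 with 2 µM AU2-94, 657, 661 and 603 with 1 µM atirmociclib, 534, 528 and 525 with 2 µM atirmociclib, and 935, 821 and 1024 with 2 µM ribociclib. POLQ at 72 h was at 1931, 1678 and 1776 with vehicle, 1367, 1256 and 1256 with 1 µM AU2-94, 1525, 1309.8 and 1512 with 2 µM AU2-94, 1187, 1238 and 1133 with 1 µM atirmociclib, 1351, 1333 and 1123 with 2 µM atirmociclib, and 1399, 1439 and 1277 with 2 µM ribociclib. All treated libraries were below vehicle, and the replicates of 2 µM atirmociclib at 24 h lay close together. The log2 fold change was -1.91 (SE 0.09, adjusted p = 1.43e-11) with 2 µM atirmociclib and -1.10 (SE 0.09, adjusted p = 4.52e-08) with ribociclib at 24 h, and -0.60 to -0.31 at 72 h (SE 0.08), where the call for 2 µM AU2-94, -0.31 (SE 0.08, adjusted p = 0.00724), was lost without AU2-94 replicate 2 (adjusted p = 0.0512). The 250 bases before POLQ, chr3:121545989-121546238 on the minus strand, are shown because the gene fell in every contrast without E2F-type letters or CCAAT in this window. Their only match, TTTGAA on the opposite strand, reads ttcaaa and lies 230 to 225 bases before the start.
POLQ: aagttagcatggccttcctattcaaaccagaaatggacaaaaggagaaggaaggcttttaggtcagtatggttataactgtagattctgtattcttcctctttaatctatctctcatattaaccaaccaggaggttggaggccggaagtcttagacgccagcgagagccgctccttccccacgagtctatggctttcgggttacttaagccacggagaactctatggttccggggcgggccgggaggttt

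The compounds were compared with each other at matched dose and time in 8 pairs, with p-values adjusted over all genes within a pair. At 24 h atirmociclib left 19 of the 41 genes lower than AU2-94 at 1 µM, where 3.16% of all genes were lower and 1.48% higher, and 15 lower at 2 µM, where 4.31% were lower and 5.12% higher. At 72 h it left 9 lower at 1 µM (3.70% of all genes lower, 4.53% higher) and 20 lower at 2 µM (8.73% lower, 11.1% higher). The largest difference was that of EXO1 at 1 µM and 24 h, -2.33 (95% interval -2.84 to -1.82, adjusted p = 3.46e-06). At 2 µM and 24 h CHEK1 had the smallest p, with -1.16 (95% interval -1.56 to -0.77, adjusted p = 0.000705). At 72 h BRCA1 had the smallest p at both doses, with -0.54 (95% interval -0.70 to -0.39, adjusted p = 8.36e-05) at 1 µM and -0.79 (95% interval -0.94 to -0.63, adjusted p = 4.03e-07) at 2 µM. CHEK2 at 24 h and FANCM at 72 h were the genes higher with 2 µM atirmociclib than with 2 µM AU2-94, by 0.47 (SE 0.14, adjusted p = 0.039) and 0.31 (SE 0.10, adjusted p = 0.0416). The 16 genes that passed in either direction at 2 µM and 24 h became 10 without AU2-94 replicate 2 or without a filter on low values, and 5 with only these 2 groups in the fit. The 9 at 1 µM and 72 h became 14 with equal library totals.

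Ribociclib and AU2-94 at 2 µM could not be separated at 24 h. None of the 41 genes passed in limma, against 0.0186% of all genes lower and 0.0186% higher, and 3 had an unadjusted p of at most 0.05. The 95% intervals of the 41 differences reached from -0.81 to 0.78 on the log2 scale, so differences within those bounds remain possible. For CHEK1 the difference was 0.00 (95% interval -0.39 to 0.40, adjusted p = 0.995) and for EXO1 -0.30 (95% interval -0.81 to 0.21, adjusted p = 0.662). At 72 h BRCA1, BRIP1 and FANCA were lower with ribociclib, with differences of -0.37 (SE 0.07, adjusted p = 0.00986), -0.45 (SE 0.11, adjusted p = 0.0282) and -0.47 (SE 0.10, adjusted p = 0.0164), where 1.38% of all genes were lower and 1.96% higher. Without any 1 of the 3 AU2-94 libraries, 1 gene passed in place of 3, and BRCA1 had an adjusted p of 0.0529 without replicate 2.

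Atirmociclib at 2 µM left 11 genes lower than ribociclib at 24 h (2.81% of all genes lower, 1.83% higher) and 10 lower at 72 h (4.35% lower, 4.83% higher). POLQ had the smallest p at 24 h, with -0.80 (SE 0.09, adjusted p = 5.29e-05), and CHEK1 at 72 h, with -0.83 (95% interval -1.11 to -0.55, adjusted p = 0.000448). ATR was higher with atirmociclib at 72 h, by 0.20 (SE 0.06, adjusted p = 0.0337), a call lost without any 1 of 5 of the 6 libraries (adjusted p of at least 0.0565). The 24 h count rested on every library. It was 4, 5 and 7 without atirmociclib replicates 1, 2 and 3, and 5, 3 and 6 without ribociclib replicates 1, 2 and 3. It was 7 with quantile normalisation or without a trend, and 6 with only these 2 groups in the fit. EXO1, at -0.89 (SE 0.24, adjusted p = 0.0411), was lost with the replicate block, at an adjusted p of 0.063. The 11 genes that passed at 72 h in either direction became 6 without atirmociclib replicate 3 and 7 without ribociclib replicate 3.

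**Figure D2:**
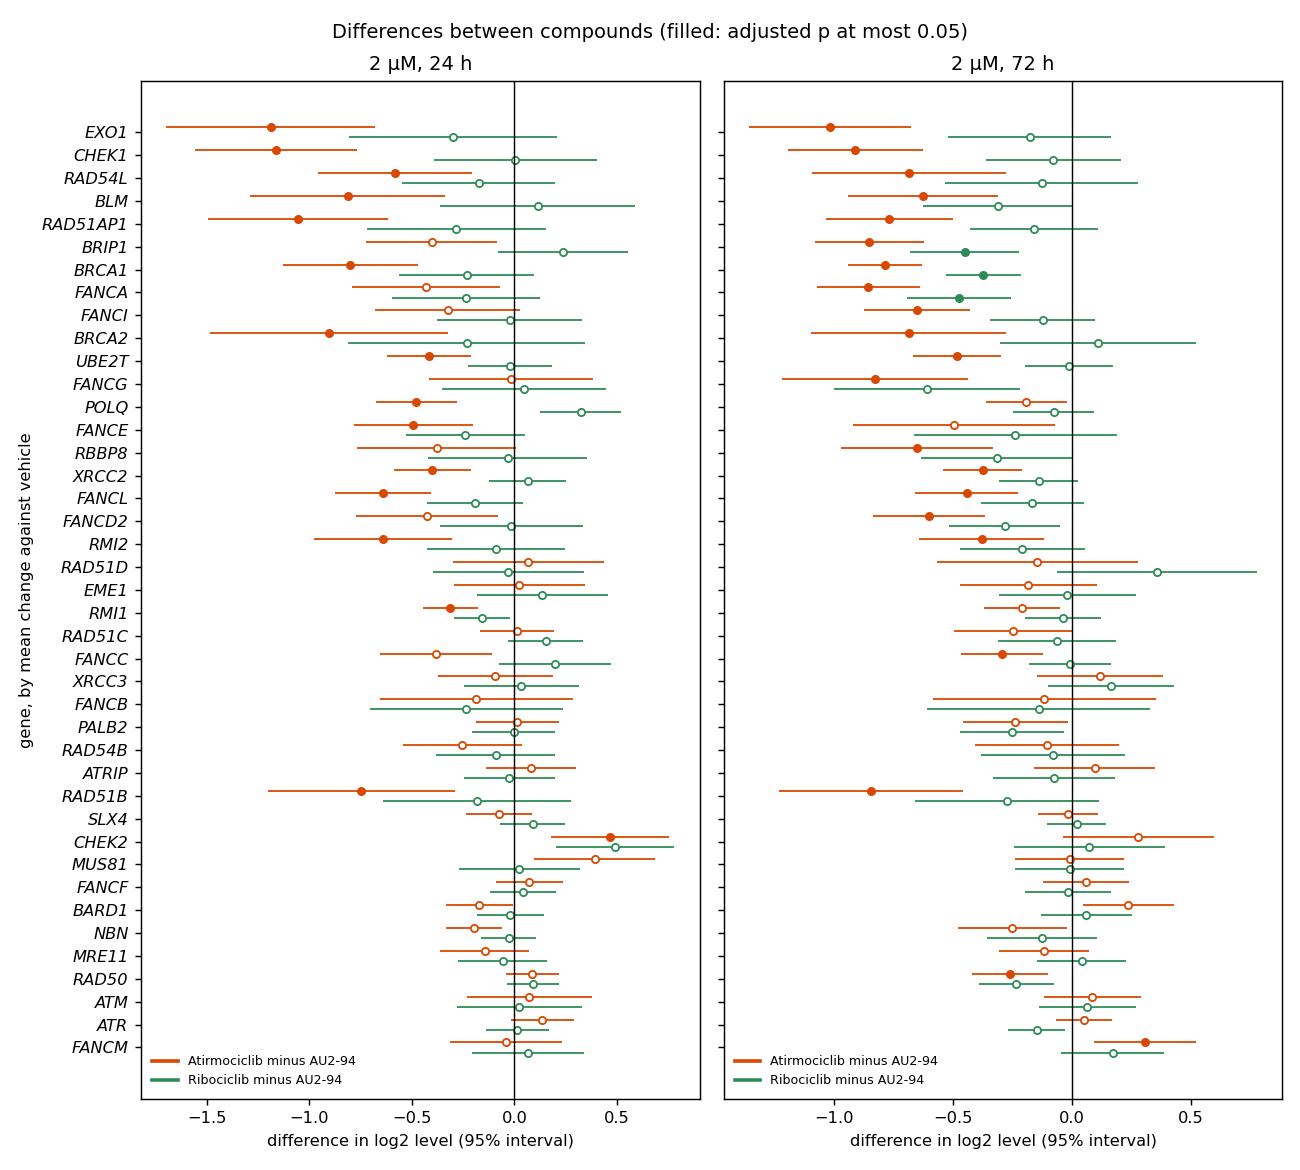
Difference in log2 level between compounds at 2 µM for the 41 genes tested (rows, ordered by their mean change against vehicle) at 24 h (left) and 72 h (right), with 95% intervals. Filled points have an adjusted p of at most 0.05, orange is atirmociclib minus AU2-94 and green is ribociclib minus AU2-94. Orange points in the upper rows lie left of 0, with EXO1 at -1.19 at 24 h, and green points scatter around 0 with none filled at 24 h and 3 filled at 72 h.

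The step from 1 to 2 µM changed few genes beyond the spread of the replicates. None of the 41 differed between 2 and 1 µM AU2-94 at 24 h, where 0.409% of all genes did, although 34 were lower at 2 µM, 15 of the 41 with an unadjusted p of at most 0.05, and the intervals ran from -1.27 to 0.56. Without AU2-94 1 µM replicate 1 this became 1 gene, BRIP1. At 72 h none differed either, with 0.00% of all genes passed, 3 of the 41 at an unadjusted p of at most 0.05 and intervals from -0.61 to 0.64. For atirmociclib none passed at 24 h (0.0124% of all genes, 4 of the 41 at an unadjusted p of at most 0.05, intervals from -0.96 to 0.88). At 72 h 1 gene passed, ATM, which was lower at 2 µM with a difference of -0.43 (SE 0.10, adjusted p = 0.0272), where 2.19% of all genes passed. That count was 0 without 1 µM replicate 2 or 3 or 2 µM replicate 1, and 2 without 2 µM replicate 2.

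For 14 to 23 of the 41 genes the treatment effect at 72 h lay above that at 24 h. The change of effect, the log2 fold change at 72 h minus that at 24 h, was above 0 and passed for 14 genes with 1 µM AU2-94, 20 with 2 µM AU2-94, 21 with 1 µM atirmociclib, 23 with 2 µM atirmociclib and 18 with ribociclib. Among all 16850 genes tested these shares were 10.1%, 9.26%, 11.3%, 11.7% and 10.5%. It was below 0 and passed for 1 or 2 genes per treatment, which were NBN, FANCF and BARD1, against 11.5%, 9.28%, 10.6%, 9.96% and 9.66% of all genes. The largest mean changes of effect were those of FANCA, EXO1, RAD54L and CHEK1. For FANCA it was 1.62 (SE 0.21, adjusted p = 1.05e-06) with 2 µM AU2-94, and for EXO1 2.07 (SE 0.30, adjusted p = 6.03e-06) with 1 µM atirmociclib. RAD54L changed most with 1 µM atirmociclib, 1.46 (SE 0.28, adjusted p = 0.000227), and CHEK1 with 2 µM atirmociclib, 1.53 (SE 0.24, adjusted p = 2.07e-05). EXO1 and CHEK1 did not pass with 1 µM AU2-94, where the change was 0.41 (SE 0.30, adjusted p = 0.367) and 0.61 (SE 0.24, adjusted p = 0.0693). RAD54L with 1 µM AU2-94, at 0.76 (SE 0.28, adjusted p = 0.0476), had an adjusted p of 0.0511 with the replicate block, and it was lost without any 1 of 9 of its 12 libraries. CHEK1 with 1 µM AU2-94 passed without vehicle replicate 3 at 72 h (adjusted p = 0.0454).

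FANCF moved against the others, since with 1 µM atirmociclib its log2 fold change was 0.17 at 24 h, which did not pass, and -0.35 at 72 h, a change of -0.52 (SE 0.11, adjusted p = 0.000763). In vehicle the genes were close to level over time. UBE2T alone passed between 24 h and 72 h, higher at 72 h by 0.31 (SE 0.09, adjusted p = 0.0372), where 7.50% of all genes passed, and 3 of the 41 had an unadjusted p of at most 0.05. That call was lost without vehicle replicate 2 or 3 of either time point.

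Genes outside the 42 give the setting. Of 59 further recombination and Fanconi anaemia genes, 25 to 29 fell across the treatments at 24 h and 4 to 5 rose. At 72 h 18 to 31 fell and 3 to 5 rose. CLSPN, claspin, the adaptor through which ATR reaches CHEK1, had the largest mean fall of the 59, with log2 fold changes from -4.66 to -1.59 (24 h) and from -2.04 to -0.73 (72 h), and passed in all 10 contrasts. MND1, a cofactor of strand exchange in meiosis, passed in 9, at -2.98 to -1.50 and -1.63 to -0.46. Of 46 DNA replication genes 33 to 40 fell at 24 h and 26 to 36 at 72 h, and the medians of their log2 fold changes ran from -1.21 to -0.57 in the earlier and from -0.80 to -0.38 in the later contrasts. Other repair routes were counted in the same way, beside 13.5% to 16.2% of all genes lower and 14.3% to 18.6% higher at 24 h. Of 10 genes of non-homologous end joining 3 to 4 fell and 1 to 2 rose at 24 h, and of 17 of nucleotide excision 2 to 4 fell and 1 to 6 rose, with medians of 0.02 to 0.10. Of 7 genes of mismatch repair 2 to 3 fell and 0 rose, and of 20 of base excision 5 to 8 fell and 1 to 3 rose. At 72 h, when 15.3% to 19.8% of all genes were lower and 14.2% to 20.9% higher, the falls were 4 to 5, 1, 1 to 3 and 5 to 9 and the rises 0 to 3, 0 to 1, 1 and 2 to 3.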

How the data were processed

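Total RNA of LNCaP cells was sequenced in 36 libraries, 3 for each of 6 treatments at 2 time points. Per the labels and the study's methods, the authors aligned reads with STAR 2.6.1d to GRCh38 in the nf-core/rnaseq pipeline and normalised them with DESeq2. The deposited table holds these normalised counts, a signal scaled between libraries and not raw reads, for 29872 genes. The counter, annotation release and strand setting are not given in the sources used here. Low values were whole multiples of 1 step for only 22.5% to 52.2% of genes per library (tolerance 0.02), so reads were not recovered. Depth in reads is therefore unknown, and totals of the normalised values were 20675156 to 22692555.

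The members and all other lists were chosen with earlier results of these data known. Groups came from the sample labels. Genes at 10 or more in at least 3 libraries of a fit were kept, and log2(normalised count + 1) was fitted in limma 3.58.1 (R 4.3.3) with a mean-variance trend. Each time point was fitted by itself with its 6 groups, and all 36 libraries together for changes with time. Fold changes are on this scale, which understates those of low genes. P-values are two-sided, were Benjamini-Hochberg adjusted over all genes of a contrast, and measure the spread between replicates, which the study's methods call biological. The labels give the replicate number as batch, which was taken to pair the libraries. The deviations of libraries with the same number from their group means correlated at -1.13e-05 on average at 24 h (45 pairs, -0.0755 to 0.0922) and -0.000503 at 72 h, so the block is reported only where it changes a call. Library values were given for the genes with the largest mean fall in each role (2 in roles of over 5 genes), those higher in at least 3 contrasts, those with the smallest adjusted p between compounds and the 4 with the largest mean change of effect with time, and every other member is given in brief. The library values of BARD1 and of ATM in vehicle were added after they were seen.

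Alternatives were no filter, a mean of at least 100, other pseudocounts, quantile normalisation, equal totals, no trend, only the groups compared, the replicate block and leaving out each library. The fits were checked on simulated counts with the same added spread for every gene. That checks the fitting steps but not the calls made here. Gene positions and overlaps came from GENCODE release 44, near-identical stretches (100 bases or more at 98% identity) from BLAST 2.17.0, and upstream sequence from RefSeq. Python 3.11.15 with pandas 2.3.3, numpy 2.4.6, scipy 1.17.1 and matplotlib 3.10.9 was used.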

Additional observations from a re-analysis of the deposited data

Results flagged for a closer look

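The effect of treatment differed between 24 h and 72 h, by the test of the change of effect in limma over all 36 libraries, for 15 of the 41 genes with 1 µM AU2-94, 22 with 2 µM AU2-94, 22 with 1 µM atirmociclib, 24 with 2 µM atirmociclib and 20 with ribociclib. Among all 16850 genes tested, 9.26% to 11.7% passed above 0 and 9.28% to 11.5% below 0, depending on the treatment. For RAD54L, the motor protein of strand invasion, the effect was nearer to 0 at 72 h by 0.76, 1.32, 1.46, 1.22 and 1.37 on the log2 scale, with the treatments in the same order. The 0.76 with 1 µM AU2-94 had an adjusted p of 0.0511 in limma with the replicate block. It was also lost when most of its libraries were left out singly. For FANCA of the Fanconi core complex the values were 0.85, 1.62, 1.31, 1.20 and 1.38. EXO1, the resection exonuclease, changed by 1.19, 2.07, 1.36 and 1.31 with 2 µM AU2-94, 1 and 2 µM atirmociclib and ribociclib, and the kinase gene CHEK1 by 1.28, 1.34, 1.53 and 1.19, and neither passed with 1 µM AU2-94. Harvest time and seeding density cannot be told apart in these differences.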

How the results depend on the processing

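Of 5400 alternative values for the 12 genes described with library values by rule, 5213 stayed on the same side of the threshold. Another 174 kept their direction and no longer passed, 13 newly passed and 0 that passed in either fit reversed. A change of sign between values that did not pass was not counted. The counts of genes that rose were the least stable. At 24 h the count with 1 µM AU2-94 was 1 in place of 0 with a mean of at least 100, quantile normalisation, the replicate block, or both, and with 1 and 2 µM atirmociclib 1 in place of 0 with quantile normalisation, alone or with the block. With ribociclib it was 2 in place of 1 with quantile normalisation, alone or with the block, and 0 with equal totals. At 72 h it was 1 in place of 2 with 1 µM AU2-94 without a filter, with the replicate block or without a trend, and 4 with quantile normalisation. With 2 µM AU2-94 it was 2 in place of 1 with quantile normalisation, alone or with the block, equal totals or only the 2 groups, and with ribociclib 1 in place of 0 with a mean of at least 100 or with quantile normalisation, alone or with the block.

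Between compounds at 24 h, 2 µM atirmociclib and AU2-94 differed in 16 genes, and in 10 without a filter and 5 with only the 2 groups. Atirmociclib and ribociclib differed in 11, and in 7 with quantile normalisation or without a trend and 6 with only the 2 groups. At 72 h and 1 µM, atirmociclib and AU2-94 differed in 9, and in 14 with equal totals. The dose step of atirmociclib at 72 h gave 1 gene, 2 with a mean of at least 100 or equal totals and 0 without a trend. Vehicle over time gave 1 gene and 0 without a filter, with quantile normalisation or with equal totals. The causes were not tested. With the replicate block RAD54L was lost between 2 µM atirmociclib and AU2-94 at 24 h (adjusted p = 0.0663), beside the calls of EXO1, ATR and RAD54L given above, and no other call of the genes described by rule was lost.

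When single libraries were left out, the genes lower at 24 h numbered 21 to 25 and 27 to 29 with 1 and 2 µM AU2-94, 27 to 30 and 28 to 29 with atirmociclib and 26 to 29 with ribociclib, and at 72 h 13 to 17, 11 to 16, 22 to 25, 23 to 25 and 18 to 24. Genes higher numbered 0 to 1 with each dose of atirmociclib and with ribociclib at 24 h, where leaving out vehicle replicate 2 gave 1, 1 and 0 and ribociclib replicate 3 gave 0. At 72 h they numbered 1 to 3, 0 to 2, 2 to 3, 2 to 3 and 0 to 1. Without vehicle replicate 3 they were 1, 0 and 1 with 1 and 2 µM AU2-94 and ribociclib, without replicate 2 or 3 of 1 µM AU2-94 1, without replicate 3 of 2 µM AU2-94 2 and without ribociclib replicate 2 1. Atirmociclib against AU2-94 gave 16 to 18 (1 µM) and 10 to 13 (2 µM) at 24 h and 7 to 10 and 18 to 21 at 72 h, ribociclib against AU2-94 0 and 1 to 4, and atirmociclib against ribociclib 3 to 7 and 6 to 9. Dose steps gave 0 to 1 and 0 at 24 h and 0 and 0 to 2 at 72 h for AU2-94 and atirmociclib, changes of effect 10 to 14, 17 to 23, 21 to 22, 20 to 25 and 15 to 18, and vehicle over time 0 to 1.

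With 3 libraries per group of 1 cell line and no read depth, small differences such as those of MRE11 and of ATR with AU2-94 could not be settled, and genes that overlap a neighbour on the other strand were counted under a strand setting that is not given in the sources used here.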

Other observations

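Ratios of normalised counts were formed for 6 pairs of genes, 5 whose proteins bind each other and the kinases CHEK1 and CHEK2 of separate branches. The pairs were chosen after their values were seen, so the ratios are given without a test. Ratios of other gene pairs were not formed, so how common such patterns are among pairs is unknown. Among single genes, 10.7% at 24 h and 11.3% at 72 h had all 15 treated libraries below every vehicle library. The ratio of BRCA1 to BARD1 normalised counts, the subunits of a ubiquitin ligase, was 0.633 to 0.726 in vehicle libraries at 24 h and 0.112 to 0.309 in treated libraries, all 15 of which were below vehicle. At 72 h it was 0.561 to 0.628 against 0.256 to 0.624, with 12 of 15 below. FANCI to FANCD2, the clamp proteins, was 1.65 to 1.94 in vehicle and 0.702 to 1.55 in treated libraries at 24 h, with 15 of 15 below, and at 72 h 14 of 15 were below. CHEK1 to CHEK2 was 1.90 to 2.86 in vehicle against 0.326 to 1.42 at 24 h and 2.02 to 2.79 against 0.480 to 1.85 at 72 h, with 15 of 15 below at both times. EME1 to MUS81, the subunits of a nuclease, was below vehicle in 13 of 15 treated libraries at 24 h, and at 72 h 12 were below and 2 above. RMI2 to RMI1 had 7 of 15 below and 2 above at 24 h, and 4 below and 1 above at 72 h. ATR to ATRIP moved the other way. It was 3.08 to 3.74 in vehicle against 3.31 to 4.87 in treated libraries at 24 h, and 3.33 to 4.49 against 3.80 to 5.70 at 72 h, with 11 and 12 of 15 above vehicle and 0 below. Each ratio can be compared only with the same ratio in other libraries, since normalised counts are not per length. A change in a ratio can come from either gene of the pair.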
